A study of Mus musculus with 7 samples.

Results

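The genes described here are 8 mouse genes of the Schwann cell myelin programme, Egr2, Pou3f1, Dhh, Mbp, Pmp22, Mag, Prx and Mal. They were chosen by name, and all 8 were found among the 27179 Entrez genes of the deposited table. RNA was sequenced in 7 libraries from Wnt1-tdT mice (Wnt1-Cre;tdTomato), where Cre driven by Wnt1 turns on the R26R-tdT reporter in the neural crest lineage, and each group was 1 library of about 50000 cells pooled from 3 mice (2 female and 1 male) at 1 month of age. From subcutaneous fat came fresh tdTomato-positive cells, and neurospheres grown from positive cells that were sorted after 10 days of mixed culture and then kept 10 more days. From the muscle layer of the small bowel came 5 libraries: fresh tdTomato-positive cells, neurospheres of positive cells sorted before 10 days of culture (M1), the positive and the negative cells of mixed spheroids sorted at 10 days, and M2 neurospheres, which such positive cells formed in a second culture of 10 days. The tdTomato label follows Wnt1-Cre history and not present cell type, and 1 pool per group gives no measure of the spread between mice.

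Schwann cells are the crest-derived glia of peripheral nerves. In those that myelinate, Sox10 and the POU factor Pou3f1 (also known as Oct6) lead to the zinc finger factor Egr2 (also known as Krox20), which switches on the genes of the sheath. Compact myelin holds Mbp and Pmp22, while Mag faces the axon and Prx links the sheath to the basal lamina side through dystroglycan. The enteric glia of the gut wall share Sox10 and S100b with Schwann cells but do not wrap axons in myelin.

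RefSeq promoter sequences of GRCm38.p6, the assembly series behind mm10, were given for 6 of the 8 genes. The 250 bases before each start were searched on both strands for a core of the Egr site (GTGGGNG, found in 28.1% of all 32851 promoters), Sox cores (ACAAAG in 16.5% and ACAATG in 10.7%), the POU octamer (ATGCAAAT, 1.6%) and a TATA box (TATAAA, 12.4%). The CArG box, the site of serum response factor, was added after the levels were seen (1.47%). Only the 4 genes with a match are shown, to place those letters in their sequence. Capitals mark the matches, and positions count back from the base before the start, -1. The last 19 bases of Prx and 22 of Dhh, which lie inside the annotated gene, were left off. Prx (chr7:27499074-27499304, plus strand) held an octamer at -233 and an Egr core at -107. Mag (chr7:30914923-30915172, minus strand) held 1 Sox core at -67, here as the reverse complement. Egr2 (chr10:67537619-67537868, plus strand, inside the span of a longer Egr2 transcript) held an octamer at -127 and a CArG box at -72. Dhh (chr15:98898563-98898790, minus strand) held 1 Egr core at -86.
Prx: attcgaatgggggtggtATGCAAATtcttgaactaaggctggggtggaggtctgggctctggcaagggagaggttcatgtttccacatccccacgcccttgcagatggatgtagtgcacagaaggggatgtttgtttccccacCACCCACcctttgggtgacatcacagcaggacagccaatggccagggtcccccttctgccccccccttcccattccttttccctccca
Mag: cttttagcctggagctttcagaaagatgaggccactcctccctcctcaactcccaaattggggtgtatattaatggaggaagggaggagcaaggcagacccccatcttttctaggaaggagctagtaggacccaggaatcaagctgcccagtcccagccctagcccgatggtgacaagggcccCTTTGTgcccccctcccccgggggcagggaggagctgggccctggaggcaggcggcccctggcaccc
Egr2: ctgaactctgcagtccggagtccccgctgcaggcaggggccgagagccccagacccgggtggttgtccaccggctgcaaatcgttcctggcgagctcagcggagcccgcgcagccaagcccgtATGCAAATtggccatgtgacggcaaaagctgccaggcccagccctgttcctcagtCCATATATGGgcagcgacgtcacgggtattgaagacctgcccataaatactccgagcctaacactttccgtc
Dhh: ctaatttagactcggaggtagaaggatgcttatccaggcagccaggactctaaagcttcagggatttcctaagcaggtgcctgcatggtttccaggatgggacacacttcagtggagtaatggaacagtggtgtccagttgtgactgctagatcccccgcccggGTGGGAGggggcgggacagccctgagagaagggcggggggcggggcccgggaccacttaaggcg

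A match of letters is a description and shows no binding. Another listed start of Mag had an Egr core at -35 and a Sox core at -126, and another start of Egr2 had Egr cores at -246 and -31. None of the 6 motifs was found before the 1 listed start of Mal or the 4 listed starts of Pmp22.

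All 8 genes had their highest level in fresh adipose crest cells. That library was the highest for 17.3% of the 16461 genes that reached 1 CPM (read count scaled to the total of its library) in a library. All 8 reached 1 CPM in both fresh libraries, in adipose neurospheres and in positive spheroid cells. In M1 and M2 neurospheres 7 did, all but Mag, and in the negative spheroid cells 4 did. Libraries held 51885106 to 65301500 reads, and each interval below reflects the counting of reads alone. With 1 library per group, no p-value that takes in the spread between mice was possible. A gene is called higher or lower at 4-fold or more with a 95% counting interval wholly beyond 2-fold, among genes with 1 CPM or more in either library. Log2 ratios are from TMM-scaled reads, and levels are plain CPM.

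**Figure D1:**
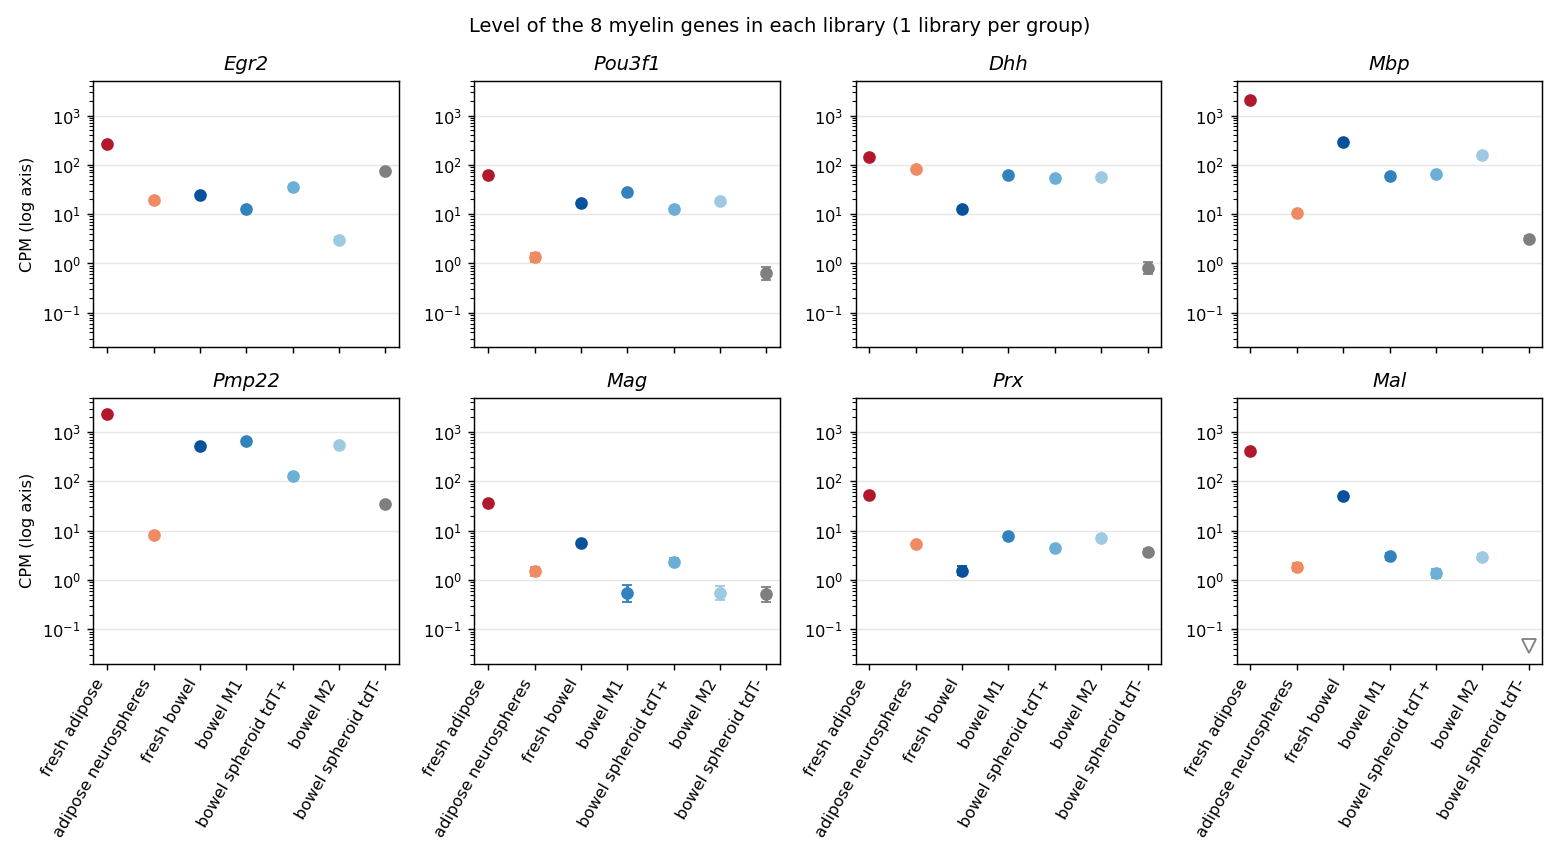
CPM (log axis) of each of the 8 genes in the 7 libraries, 1 point per library, with 95% Poisson counting intervals, often smaller than the point. The open triangle stands for 0 reads and is drawn at 3 reads (0.0464 CPM). Fresh adipose is the highest point in all 8 panels.

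The transcription factors come first. Egr2, the master regulator of peripheral myelination (Entrez 13654, chromosome 10, 67534469 to 67542188), had 264 CPM in fresh adipose and 19.7 CPM in adipose neurospheres. In the bowel it had 25 CPM in fresh cells, 12.7 CPM in M1, 35.9 CPM in positive spheroid cells and 2.97 CPM in M2 neurospheres. The negative spheroid cells held 73.4 CPM, the next highest level after fresh adipose. Egr2 was thus the 1 gene of the group, apart from fresh adipose, with its top level outside the crest lineage. No neighbours in its order of 7 levels had overlapping counting intervals.

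Pou3f1, the factor of the promyelinating stage (Entrez 18991, chromosome 4, 124657646 to 124660655), had 62.6 CPM in fresh adipose and 1.35 CPM in adipose neurospheres. In bowel crest cells it stayed within a narrow band, at 16.7 CPM fresh, 28.5 CPM in M1, 12.8 CPM in positive spheroid cells and 18.6 CPM in M2. The negative cells had 0.634 CPM. The intervals of fresh bowel and M2 overlapped.

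Dhh, the hedgehog ligand by which Schwann cells instruct the perineurial sheath (Entrez 13363, chromosome 15, 98881615 to 98898562), had 147 CPM in fresh and 80.9 CPM in cultured adipose cells. Bowel crest cells had 12.9 CPM fresh and 62.6, 54.7 and 57.2 CPM in M1, positive spheroid cells and M2. Negative cells had 0.819 CPM. It was the only one of the 8 genes whose next highest level after fresh adipose was in adipose neurospheres. The intervals of M2 and positive spheroid cells overlapped.

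Mbp, the basic protein that holds the cytoplasmic faces of compact myelin together (Entrez 17196, chromosome 18, 82475091 to 82585637), had 2093 CPM in fresh adipose and 10.6 CPM in adipose neurospheres. In the bowel it had 287 CPM fresh, 58.4 CPM in M1, 63.8 CPM in positive spheroid cells and 158 CPM in M2, against 3.19 CPM in negative cells. Its locus also gives rise to Golli transcripts that are made outside myelin, and counts per gene do not separate them. No neighbouring levels had overlapping intervals.

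Pmp22, a tetraspan protein of compact myelin that many growth-arrested cells also make (Entrez 18858, chromosome 11, 63128982 to 63159547), had 2284 CPM in fresh adipose and 8.13 CPM in adipose neurospheres, its lowest level. Bowel crest cells had 518 CPM fresh, 668 CPM in M1, 127 CPM in positive spheroid cells and 559 CPM in M2. Negative cells had 34.1 CPM. It was the only gene of the 8 that was lowest in the adipose neurospheres.

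Mag, the adhesion molecule of the inner, axon-facing layer (Entrez 17136, chromosome 7, 30899175 to 30914922), had 35.8 CPM in fresh adipose and 1.53 CPM in adipose neurospheres. Fresh bowel cells had 5.58 CPM and positive spheroid cells 2.35 CPM. M1, M2 and the negative cells had 0.54, 0.551 and 0.526 CPM, and these 3 could not be told apart by counting. At 28 to 36 reads they are still above the floor of 3 reads.

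Prx, which encodes the scaffold periaxin (Entrez 19153, chromosome 7, 27499305 to 27520041), had 53.2 CPM in fresh adipose and 5.37 CPM in adipose neurospheres. The lowest of the 7 levels was that of fresh bowel cells, 1.56 CPM, below the negative cells with 3.77 CPM. The other bowel libraries had 7.92 CPM in M1, 7.21 CPM in M2 and 4.38 CPM in positive spheroid cells. Intervals overlapped between M1 and M2, between adipose neurospheres and positive spheroid cells, and between positive and negative spheroid cells.

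Mal, a small raft protein of myelin that T cells and some epithelia also make (Entrez 17153, chromosome 2, 127633226 to 127656695), had 415 CPM in fresh adipose and 51.1 CPM in fresh bowel cells. All cultured crest libraries were low, at 1.87 CPM in adipose neurospheres, 3.01 CPM in M1, 1.38 CPM in positive spheroid cells and 2.91 CPM in M2. Negative cells had 0 reads, which allows up to 0.0464 CPM at 3 reads. M1 and M2 overlapped, and so did adipose neurospheres and positive spheroid cells. Antisense genes overlap exons of Prx, Dhh and Pou3f1 and have no rows of their own in the table, so their reads cannot be set apart where strand was not used.

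Per kilobase of annotated exon, fresh adipose cells had Pmp22 at 1060 CPM per kb, rank 35 of 21572 genes. Mbp followed at 258, Mal at 149 and Egr2 at 83 CPM per kb. Dhh (33.3), Pou3f1 (16.3), Mag (14.7) and Prx (9.54 CPM per kb) were lower. In fresh bowel cells the order was Pmp22 (241), Mbp (35.4), Mal (18.4), Egr2 (7.86), Pou3f1 (4.33), Dhh (2.92), Mag (2.29) and Prx (0.28 CPM per kb). The summed exons of Mbp include those of Golli, which lowers its value on this scale.

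To see how fresh crest cells of fat differ from those of the bowel wall, both fresh libraries were compared. 7 of the 8 genes were called higher in adipose cells, where 7.10% of 15585 genes were, and none lower, where 11.4% were. The median log2 ratio of the 8 genes was 2.92, and that of all measured genes 0.09. Prx differed most (log2 ratio 5.05, 95% counting interval 4.77 to 5.39). Dhh (3.49, 3.38 to 3.60), Egr2 (3.38, 3.30 to 3.46) and Mal (3.0, 2.95 to 3.06) came next. Mag (2.65) and Pmp22 (2.12) were nearer the limit. Pou3f1 passed in neither direction (1.89, 1.79 to 1.99).

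Markers of other cells moved too. Dendritic cell markers (all 7 at 1 CPM in both) summed to 4016 CPM in fresh adipose and 293 CPM in fresh bowel. No marker of the dendritic, lymphocyte and fibroblast lists was at 0 reads in either library. Lymphocyte markers (10 of 10 and 8 of 10 at 1 CPM) summed to 804 and 117 CPM, and fibroblast markers (8 of 8 in both) to 12041 and 5305 CPM. Col3a1 alone had 8326 and 1644 CPM of the fibroblast sums. Of the 8 fibroblast markers 3 were called higher in adipose and 1 lower, and their median log2 ratio was -0.92 (all genes 0.09). Macrophage markers went the other way, with sums of 1726 and 4421 CPM. The bowel library held smooth muscle markers at 24364 CPM and pancreatic acinar markers at 49075 CPM, against 302 and 46.3 CPM. Their part in the result was not tested. In pooled RNA, fewer cells of a type and less RNA per cell cannot be told apart.

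The 8 genes were therefore also set against 12 glial identity genes (Sox10, S100b, Erbb3, Gfra3 and others) counted in the same library. Those genes summed to 6371 CPM in fresh adipose and 1187 CPM in fresh bowel. Per 1000 of their reads, fresh adipose and fresh bowel held 328 and 242 reads of Mbp, 358 and 437 of Pmp22, 5.61 and 4.7 of Mag, and 65.1 and 43.1 of Mal. Pou3f1 had 9.83 and 14, and Egr2 41.5 and 21.1. On this scale 1 of the 8 genes, Prx, differed by 4-fold or more, with 8.35 against 1.31 reads. The same count of 1 was found per Sox10 read, and with Gfra3 left out. Gfra3 alone had 2836 CPM in fresh adipose. Without it, Mbp had 592 and 249 reads, Mag 10.1 and 4.84, Pmp22 646 and 450, and Pou3f1 17.7 and 14.5. Leaving out Gfra3 thus turned the direction of Pmp22 and Pou3f1.

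**Figure D2:**
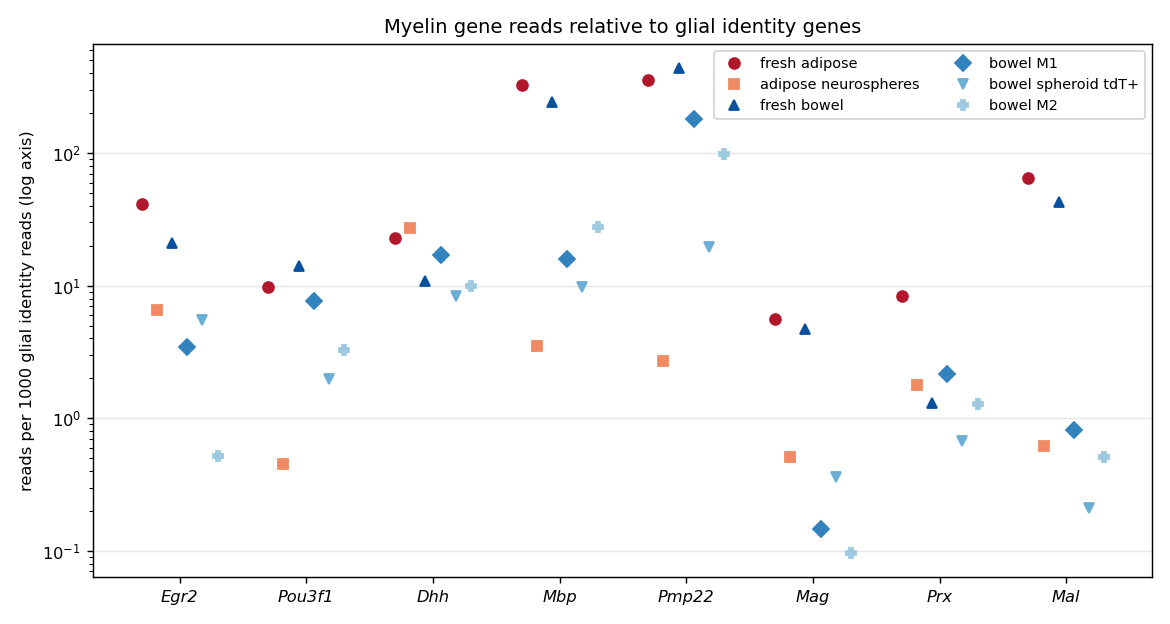
Reads of each of the 8 genes per 1000 reads of 12 glial identity genes (log axis) in the 6 tdTomato-positive libraries, 1 point per library. The 2 fresh libraries lie closer for Mbp (328 and 242) and Mag (5.61 and 4.7) than for Prx (8.35 and 1.31). With Gfra3 left out, which is not drawn, Mbp had 592 and 249 and Mag 10.1 and 4.84.

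Culture of adipose crest cells was compared next, neurospheres against fresh cells. 7 of 8 genes fell, against 20.8% of 14773 genes, and none was called higher, as 5.72% were. The median log2 ratio was -5.16 (all genes -0.01). The log2 ratio was -8.27 for Pmp22 (interval -8.41 to -8.15), -7.92 for Mal (-8.22 to -7.68) and -7.77 for Mbp (-7.88 to -7.66). It was -5.65 for Pou3f1, -4.67 for Mag, -3.89 for Egr2 and -3.45 for Prx. Dhh passed in neither direction (log2 ratio -1.0, interval -1.05 to -0.95).

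Glial identity genes were mixed in the same comparison, with 1 of 12 called higher and 5 lower (median log2 ratio -0.45), and their sum went from 6371 to 2999 CPM. Sox10 had 377 CPM fresh and 632 CPM in adipose neurospheres, and Erbb3, the neuregulin receptor of Schwann cells, 127 and 235 CPM. Gpr37l1, a receptor of glia, went from 816 to 1.12 CPM, Gfra3 from 2836 to 83.5 CPM and the calcium-binding protein gene S100b from 129 to 26.8 CPM. Per 1000 glial identity reads Mbp went from 328 to 3.53 and Pmp22 from 358 to 2.71, while Dhh had 23 and 27 (41.5 and 27.8 with Gfra3 left out). On this scale the same 7 genes were at least 4-fold lower. Markers of other cell types moved both ways. Summed dendritic markers were 4016 CPM fresh and 130 CPM cultured, macrophage markers 1726 and 29.6 CPM, and lymphocyte markers 804 and 1.79 CPM. Neuronal markers summed to 63 CPM fresh and 721 CPM cultured, with 2 of 4 measured called higher, Uchl1 (8.97 and 502 CPM) and Tubb3 (44.5 and 209 CPM). Only those 4 of the 8 neuronal markers reached 1 CPM in either library, and Snap25 had 0 reads in the neurospheres. The part of these other cell types in the fall was not tested.

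The 3 bowel cultures were each compared with the same fresh bowel library, so these comparisons are not independent. In M1, 3 of 8 genes were called lower (16.4% of 15422 genes) and none higher (6.59%), with a median log2 ratio of -0.76 (all genes -0.07). In positive spheroid cells 3 were called lower (20.4% of 15232) and none higher (6.57%), with a median of -0.98 (all genes -0.03). In M2, 3 were called lower (21.0% of 15189) and none higher (5.89%), with a median of -0.66 (all genes -0.07). Of the 8 genes, Mal was called lower in all 3, with log2 ratios of -4.53 in M1, -5.35 in positive spheroid cells and -4.40 in M2.

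The other calls differed by culture. Mag was called lower in M1 (-3.73, -4.44 to -3.27) and M2 (-3.54, -4.17 to -3.13), and passed in neither direction in positive spheroid cells (-1.41). Mbp was called lower in M1 (-2.76) and positive spheroid cells (-2.34), and had -1.15 in M2. Pmp22 was called lower in positive spheroid cells alone (-2.20), with -0.09 in M1 and -0.18 in M2. Egr2 was called lower in M2 alone (-3.35), with -1.43 in M1 and 0.34 in positive spheroid cells. Pou3f1 had 0.32, -0.55 and -0.13. Scaled by total reads, the small ratios of Pmp22 in M1 (0.37) and M2 (0.11) and of Pou3f1 in M2 (0.16) were above 0.

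Dhh, and Prx in M1 and M2, lay just inside the limit on the upper side, while Prx in positive spheroid cells lay further below it. Dhh had log2 ratios of 1.82, 1.91 and 1.86 in M1, positive spheroid cells and M2, and Prx had 1.87, 1.30 and 1.90. With scaling by total reads, which shifts the median of all genes by 0.46 in M1 and 0.29 in M2, both genes were called higher in M1 and in M2, and the count of calls went from 3 to 5. Fresh bowel also held smooth muscle markers at 24364 CPM and acinar markers at 49075 CPM, which were 82.3 CPM or less and 242 CPM or less in the 3 cultures. Their part in these ratios was not tested.

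**Figure D3:**
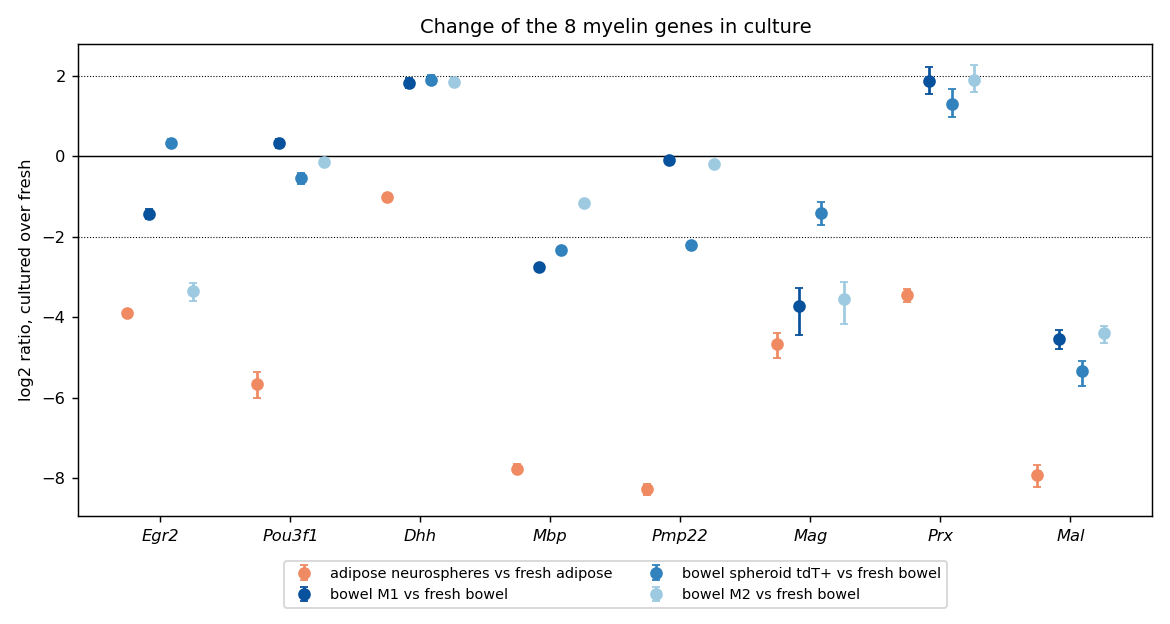
Log2 ratio of cultured over fresh cells for the 8 genes, with 95% counting intervals, in adipose neurospheres and 3 bowel cultures. Dotted lines mark 4-fold. Adipose points lie below the bowel points for all 8 genes, and Prx and Dhh lie below 0 in adipose and above 0 in each bowel culture.

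Relative to glial identity genes, which summed to 1187 CPM in fresh bowel and 5693 CPM in M2, 6 of 8 genes were 4-fold or more lower in M2. Mbp went from 242 to 27.8 reads per 1000, Pmp22 from 437 to 98.3, Pou3f1 from 14 to 3.26, Mal from 43.1 to 0.511, Egr2 from 21.1 to 0.522 and Mag from 4.7 to 0.0968. Dhh had 10.8 and 10, and Prx 1.31 and 1.27. In M1 the count was 4 and in positive spheroid cells 5, and these counts depend on the denominator. Per Sox10 read, Pmp22 (5.29 in fresh bowel and 0.85 in M1) and Pou3f1 (0.17 and 0.0363) were also 4-fold or more lower in M1. Egr2 was so in positive spheroid cells (0.255 in fresh bowel and 0.0399). Of the 12 glial genes themselves, 3 were called higher and 1 lower in M1 against fresh bowel, where 6.59% and 16.4% of all genes were. The counts were 8 and 2 in positive spheroid cells (6.57% and 20.4%) and 6 and 0 in M2 (5.89% and 21.0%). Erbb3 was called higher in M1 (log2 ratio 3.87), positive spheroid cells (4.47) and M2 (3.91). Sox10 was called higher in M1 (2.54) and positive spheroid cells (3.02), and had 98 CPM in fresh bowel and 661 CPM in M2.

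After the same 2 culture stages, adipose neurospheres were compared with bowel M2 neurospheres. 3 of 8 genes were called lower in adipose (8.69% of 13440 genes) and 1 higher (5.33%), with a median log2 ratio of -0.41 (all genes -0.01). Pmp22 was lower by the widest margin of the 8 (-5.98, -6.11 to -5.86), followed by Mbp (-3.77) and Pou3f1 (-3.63). Egr2 was higher in adipose (2.83, 2.63 to 3.07). Mag (1.53), Dhh (0.62), Prx (-0.30) and Mal (-0.51) passed in neither direction. Pmp22 and Mbp, called higher in adipose in the fresh cells, were called lower in adipose here.

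The tdTomato-positive and negative cells of the same spheroids were compared for the 8 genes, with 1 library on each side. 4 were called higher in positive cells (6.64% of 13951 genes) and none lower (12.5%), with a median log2 ratio of 2.95 (all genes 0.01). They were Dhh (5.77, 5.43 to 6.24), Mbp (4.07, 3.88 to 4.29), Pou3f1 (4.03, 3.64 to 4.58) and Mal. Mal had 0 reads in negative cells and was at least 25.1-fold higher against the floor of 3 reads, and the lower counting limit of its log2 ratio was 4.32. Mag (1.86) and Pmp22 (1.66) did not pass. Prx had a ratio near 0 with an interval across it (-0.03, -0.28 to 0.23; 0.21 scaled by total reads), and Egr2 leaned to the negative cells (-1.27, -1.35 to -1.20). Glial markers were low in the negative cells, with Sox10 at 5.23 CPM and summed Schwann-lineage markers at 21 CPM against 4040 CPM, so that Prx and Egr2 reads there came beside few lineage reads.

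Both bowel neurosphere methods were compared with each other. None of the 7 measured genes was called in M2 against M1, where 1.20% of 14141 genes were called higher and 7.35% lower. With calls so few among all genes, no call among 7 does not set these genes apart. The median log2 ratio of the 7 was 0.04 (all genes -0.08). Mbp had 1.61 (1.55 to 1.67) and Egr2 -1.91 (-2.17 to -1.69), with intervals away from 0. Pmp22, Prx, Dhh and Mal had -0.08, 0.04, 0.04 and 0.12, and Pou3f1 -0.45. Mag was under 1 CPM in both. Scaled by total reads, Egr2 was the 1 gene called, as lower.

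The second culture stage, M2 against the positive spheroid cells it was grown from, parted the genes. Pmp22 was called higher (2.02, 1.99 to 2.06), as were 3.07% of 13432 genes. Egr2 (-3.69, -3.93 to -3.49) and Mag (-2.14, -2.77 to -1.67) were called lower, as were 3.84%. The other 5 ranged from -0.05 for Dhh to 1.20 for Mbp, and the median of the 8 was 0.51 (all genes -0.02). The Pmp22 ratio lay at the very edge of the 4-fold limit.

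Egr2 is also an immediate early gene, and it was set beside Egr1, a serum-induced member of the same family. Egr1 had 4698 CPM in fresh adipose and 42.8 CPM in adipose neurospheres. In the bowel it had 1144 CPM fresh, 115 CPM in M1, 1135 CPM in positive and 1620 CPM in negative spheroid cells, and 158 CPM in M2. Both genes were higher in each of the 4 libraries of fresh or spheroid cells than in each of the 3 neurosphere libraries. Egr3, another gene of the family, did not follow this order. It had 0.0693 CPM in fresh bowel, its lowest level, and 1.06 CPM in fresh adipose. Adipose, M1 and M2 neurospheres had 1.41, 1.39 and 0.98 CPM, and positive and negative spheroid cells 4.52 and 9.26 CPM. The part of an immediate early response in the Egr2 levels was not tested.

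**Figure D4:**
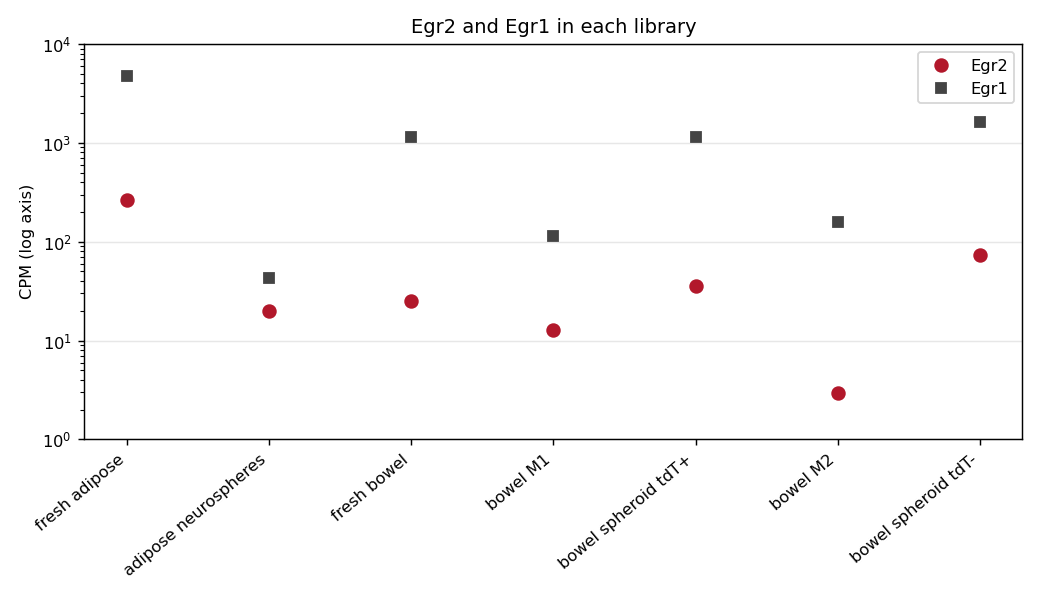
CPM (log axis) of Egr2 and Egr1 in the 7 libraries, 1 point per gene and library. Fresh adipose has the highest point of both (264 and 4698 CPM), and the negative spheroid cells the next (73.4 and 1620 CPM).

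The 8 genes were set beside a list of 18 other myelin protein genes. In fresh adipose 16 reached 1 CPM, in fresh bowel 12, and in M2 and positive spheroid cells 9 each. Cldn19, which encodes a tight junction protein of Schwann cells, had 15.9 CPM in fresh adipose and 0.292 CPM in adipose neurospheres. In fresh bowel and M2 it had 0.0347 and 0.0613 CPM, from 2 and 4 reads. M1 and the positive spheroid cells had 0 reads, and the negative cells 0.0155 CPM from 1 read. Fresh adipose was thus the 1 library with Cldn19 at 1 CPM or more.

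Of 16 measured genes of that list, 7 were called higher and 1 lower in fresh adipose than in fresh bowel cells (median log2 ratio 1.92). Of all genes 7.10% were called higher and 11.4% lower. Cldn19 was among the 7 (7.94, 6.97 to 11.87, with 2 reads in the bowel). Mpzl2 was the lower one (-3.64). In adipose neurospheres 10 of 16 fell and none was called higher (median -2.76), where 20.8% of all genes were called lower. Mog, best known from oligodendrocytes, went from 27.7 CPM to 0 reads. In fresh adipose the oligodendrocyte genes Olig2 and Opalin had 0 reads, and Mog was the only one of 8 such markers at 1 CPM.

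In the bowel cultures the list was split, with 3, 2 and 3 of 12 measured genes called higher in M1, positive spheroid cells and M2, and 3 lower in each. Of all genes 5.89% to 6.59% were called higher and 16.4% to 21.0% lower. Sh3tc2, a Schwann cell endosome protein, had 11.1 CPM fresh, and 92.4, 58.7 and 93.3 CPM in these cultures. Gjc3, a glial gap junction gene, had 52.1 CPM fresh and 370 CPM in M2 (2.54). Between neurospheres, 3 of 12 were higher and 3 lower in adipose (5.33% and 8.69% of all genes), with Gjc3 at -3.05 and Ndrg1 at -2.18. Of 10 measured in positive against negative spheroid cells, 5 were higher and 1 lower (6.64% and 12.5% of all genes), among them Gjc3 (8.49). In M2 against M1, 1 of 10 was lower (7.35% of all genes), and against positive spheroid cells none of 9 was called.

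**Figure D5:**
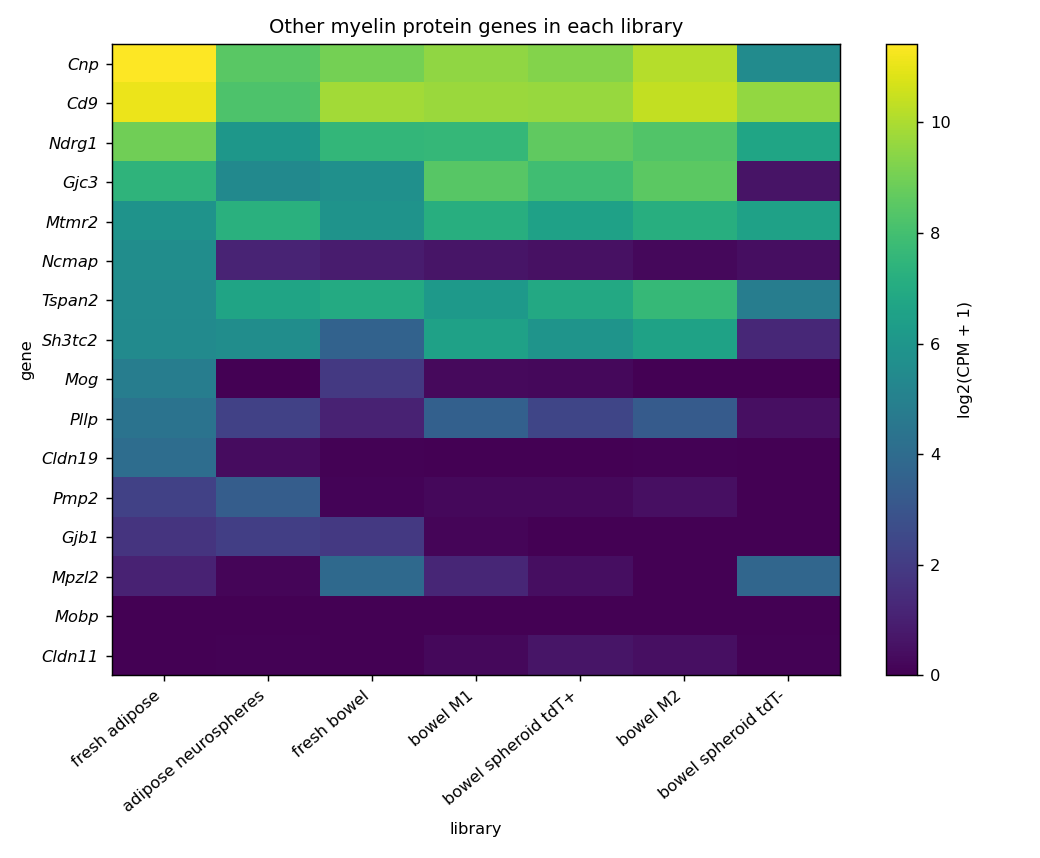
Colour shows log2(CPM + 1) of 16 genes of the list of other myelin proteins (rows, ordered by their level in fresh adipose) in the 7 libraries (columns). Cldn19 stands out in fresh adipose (15.9 CPM), while Cnp is high in each crest library (358 to 2734 CPM).

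The partners of individual members were counted in the same way. Of 11 genes of the dystroglycan complex to which Prx belongs, 2 were called higher in fresh adipose than fresh bowel, Drp2 (2.35) and the laminin gene Lama2 (2.24), and none lower (median 1.30). Drp2 encodes the dystrophin-related protein that binds periaxin. It had 20.7 CPM in fresh adipose and 0.0649 CPM in adipose neurospheres, where 3 of 11 genes fell (median -1.36). Of all genes 7.10% were called higher in fresh adipose than fresh bowel, and 20.8% fell in adipose neurospheres. In M1, Dag1, which encodes dystroglycan, was called higher (2.39) and 1 of the 11 lower (median -0.12), where 6.59% and 16.4% of all genes were.

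Hedgehog pathway genes were read beside their ligand Dhh. Of 13 measured, 2 were higher and none lower in fresh adipose than fresh bowel (median -0.70), where 7.10% and 11.4% of all genes were. 5 of 12 fell in adipose neurospheres, among them the coreceptor Gas1 (-3.19), and none was called higher (median -0.27). Of all genes 20.8% were called lower there. In M1, 3 of 12 were higher and 1 lower (median 0.51), with the pathway targets Hhip at 0.347 CPM fresh and 18.5 CPM cultured and Ptch1 at 1.73 and 19.3 CPM. In positive spheroid cells 3 were higher and 3 lower, and in M2, 3 were higher and 2 lower. Of all genes 5.89% to 6.59% were called higher and 16.4% to 21.0% lower in the bowel cultures. Against negative cells, 5 of 11 were lower in positive cells and 1 higher (median -1.83), with the coreceptor Boc at -4.99. There 12.5% of all genes were called lower and 6.64% higher.

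Genes of the lipids that myelin needs were counted next. Ugt8a and Fa2h, which make galactosylceramide and its hydroxylated form, were the 2 of 16 called higher in fresh adipose than fresh bowel (6.97 and 3.53, median of the list 0.58). Of all genes 7.10% were called higher. In adipose neurospheres 3 of 16 fell, with Fa2h at -6.24 and Ugt8a at -4.20, and none was called higher (median -0.23), where 20.8% of all genes were called lower. In M1 and M2, 6 and 5 of 16 were called higher and none lower (medians 1.70 and 1.39), where 6.59% and 5.89% of all genes were called higher. Fasn, the fatty acid synthase, had 11.2 CPM in fresh bowel, 511 CPM in M1 and 537 CPM in M2. In positive spheroid cells 1 of 15 was higher and 1 lower, where 6.57% and 20.4% of all genes were. Against negative cells, 1 of 15 was higher in positive cells, Gal3st1 (7.58), and 1 lower, Fa2h (-6.22). Of all genes 6.64% were called higher and 12.5% lower there, so these counts do not set the list apart. Fa2h had its highest level in the negative cells, 55.5 CPM against 13.3 CPM in fresh adipose.

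Regulators and repair genes were counted likewise. Of 18 measured myelin regulators (Sox10, Erbb3, Yap1 and others), none was called lower in any of the 4 culture comparisons. Of all genes 16.4% to 21.0% were called lower and 5.72% to 6.59% higher in these comparisons. Values under the limit did go down, as for Lgi4, a ligand secreted by Schwann cells, with 435 CPM in fresh adipose and 138 CPM in adipose neurospheres. 1 was called higher in adipose neurospheres, Yap1 (2.25), and 3, 5 and 3 in M1, positive spheroid cells and M2. Of the immature and repair Schwann cell genes, 7 of 17 were higher and 4 lower in adipose neurospheres (median 0.26). Gdnf, a trophic factor of repair cells, had 0.0937 CPM fresh and 67.4 CPM cultured, and Artn 0.344 and 128 CPM. In positive spheroid cells 10 of 16 were higher and 1 lower (median 3.60), and in M2, 8 of 15 and 1 (median 2.70). Olig1 had 0.104 CPM in fresh bowel and 132 CPM in M2.

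Axon-glia adhesion genes were led by Gldn, the gliomedin of nodes of Ranvier. It had 8.47 CPM in fresh adipose and 1112 CPM in adipose neurospheres, where 4 of 12 such genes were higher and 2 lower (median 0.45). Of all genes 5.72% were called higher and 20.8% lower in that comparison, and 5.89% and 21.0% in M2. In M2, 4 of 12 were higher and 1 lower (median 1.52), with Cadm4, the Schwann cell receptor for axonal nectin-like proteins, at 7.42 and 342 CPM. Of the MAL family, 4 of 6 fell in adipose neurospheres (median -2.37), with Cmtm5 at 292 and 1.06 CPM. 4 of 8 were lower in each bowel culture, where 16.4% to 21.0% of all genes were, and Marveld1 had 375 CPM fresh and 36.9 CPM in M2.

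Over the 7 libraries, the genes whose log2(CPM + 1) ran closest to each member were picked from 12187 genes with 10 CPM in a library. They are a description, since 7 points that share tissue and culture can be matched by many genes. Mbp ran with Chaserr (Pearson r = 0.992) and Deptor (0.990), Pmp22 with Fam107b (0.992) and Nlgn3 (0.988), and Mag with Sparc (0.995). Mal ran with Shpk (0.994) and Sh2d4a (0.989), Prx with Setdb2 (0.986), and Egr2 with Shisa5 (0.971). Pou3f1 ran with Zfp382 (0.992) and Dhh with Fam172a (0.997), both genes of small range. Within the group, the closest pairs were Pou3f1 and Pmp22 (0.94), Mal and Mag (0.93) and Pou3f1 and Mbp (0.91). Egr2 had -0.10 with Dhh, 0.07 with Pou3f1, 0.11 with Pmp22, 0.23 with Mbp, 0.49 with Prx, 0.51 with Mal and 0.73 with Mag.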

How the data were processed

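Per the submitters' processing notes, reads were handled with bcl2fastq 2.17, HISAT and featureCounts on mm10. Settings, annotation and strand use were not given in the sources used. Per the labels' protocols, cDNA was made with SMART-Seq v4 and libraries with Nextera XT. This chemistry carries no molecular identifiers, so reads are not independent molecules. The authors deposited CPM per Entrez gene. All values were whole multiples of 1 read (100% within 0.05 read), so reads were recovered.

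RefSeq GRCm38.p6 gave symbols for 25275 of 27179 identifiers. Exon lengths are unions of GENCODE M21 basic exons. Libraries were scaled by TMM over 16461 genes (edgeR 4.0.16, R 4.3.3). Ratios used a prior count of 2, which shrinks those of low genes, with exact conditional binomial intervals at 95%. Levels carry exact Poisson intervals. With 1 library per group, a count test that takes in the spread between libraries was not possible. The steps were tested on simulated reads.

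The members, 9 pathway lists, 13 marker lists and 9 comparisons were chosen with earlier results of these data known. Named genes are the 8 members, up to 2 called genes each way per list and comparison with at least 10 CPM, and the genes most like each member. Some genes of the lists are counted in them but not reported here by name. Cnp, Lgi4, Olig2, Opalin and the levels of Sox10, Erbb3, Egr1 and Egr3 beside the members were chosen after their values were seen. Alternatives were other scalings (total reads, DESeq2 1.42.0 size factors), filters, a prior count of 0.5, 2-fold and 8-fold rules, and other bowel libraries. Tables were handled in pandas 2.3.3 and numpy 2.4.6 under Python 3.11.15, intervals in scipy 1.17.1, and plots in matplotlib 3.10.9.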

Additional observations from a re-analysis of the deposited data

Results flagged for a closer look

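The change in culture pointed in opposite directions in the tissues for 2 of the 8 genes in TMM-scaled reads. Prx had a log2 ratio of -3.45 in adipose neurospheres against fresh adipose cells and 1.90 in bowel M2 neurospheres against fresh bowel cells, a difference of -5.35. Dhh had -1.0 and 1.86, a difference of -2.87. In both genes M1 neurospheres and positive spheroid cells lay on the same side as M2. With 1 library per group the difference was not tested, and the 3 bowel ratios share the fresh bowel library, in which Prx had its lowest level. With TMM scaling the bowel ratios of both genes lie under 4-fold, and scaled by total reads both were called higher in M1 and M2. Per 1000 reads of glial identity genes the pattern was not seen with M2 or positive spheroid cells, but it remained in part with M1. Dhh had 23 fresh and 27 cultured in adipose (41.5 and 27.8 with Gfra3 left out), and 10.8 and 10 in bowel M2. Prx had 8.35 and 1.79 in adipose, and 1.31 and 1.27 in bowel M2. Positive spheroid cells had 8.41 reads of Dhh and 0.674 of Prx, below fresh bowel. M1 had 16.9 reads of Dhh and 2.14 of Prx, above fresh bowel. In M1 the opposite directions thus remained on this scale for Prx, and for Dhh with Gfra3 left out (11.2 in fresh bowel and 16.9 in M1). Per Sox10 read they did not remain, since both genes fell in both tissues. Prx went from 0.141 to 0.00849 in adipose neurospheres and from 0.0159 to 0.0101 in M1. Dhh went from 0.388 to 0.128 and from 0.131 to 0.0797.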

How the results depend on the processing

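The 216 member ratios recomputed with other scalings or a prior count of 0.5 kept their sign wherever a member had been called, while 8 small ratios that were not called changed sign, each under total-read scaling. Of 75 counts of members recomputed, 11 moved by over 1.5 times. Under the 2-fold rule the counts were 6 in M1, 6 in positive spheroid cells and 6 in M2 (each against fresh bowel, 3 before), 7 in positive against negative spheroid cells (4 before) and 2 in M2 against M1 (0 before). Under the 8-fold rule they were 4 for fresh adipose against fresh bowel (7 before), 1 for positive spheroid against fresh bowel cells and 1 for M2 against positive spheroid cells (3 before in both). Scaled by total reads, they were 5 in M1 and 5 in M2 against fresh bowel, and 1 in M2 against M1. The shift of the median gene under that scaling was at most 0.46, and the scaling itself sets these counts. Of 162 counts of list genes recomputed under 2 scalings, an alternative chosen after seeing the data, 8 moved by over 1.5 times. No paired analysis was possible because each group has 1 library, and none could be left out. At these depths 3 reads are 0.0459 to 0.0578 CPM, so depth limits only levels near that value.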
